A study of Homo sapiens with 6 samples.

Results

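The branched-chain amino acid catabolism enzymes were taken as 10 listed genes: the transaminases BCAT1 and BCAT2, the BCKDH complex genes BCKDHA, BCKDHB and DBT, its kinase BCKDK and its phosphatase PPM1K, the valine enzymes HIBCH and HIBADH, and the leucine enzyme IVD. They were found by symbol among the 61533 gene rows of the count table, and each symbol matched 1 row. The cells were MDA-MB-231, a human cell line of triple-negative breast cancer grown in complete medium with serum, glutamine and nonessential amino acids. The control group carried an empty vector (3 libraries, genotype WT), and the other group, shKDM2B (3 libraries), carried a knockdown of KDM2B, a histone demethylase that binds unmethylated CpG DNA within the Polycomb complex PRC1.1. All 3 knockdown columns carry 1 common hairpin label, and the sources used here do not say whether the cells were a pool or a clone. The series has no control hairpin, so loss of KDM2B and other effects of the hairpin cannot be told apart. The title of the series places KDM2B beside MYC and ATF4, both transcription factors, in the regulation of how cells use amino acids, and shKDM2B against empty vector was the single comparison.

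Leucine, isoleucine and valine are broken down by a shared entry route. A transaminase first moves the amino group to 2-oxoglutarate, in the cytosol through BCAT1 or in mitochondria through BCAT2, and the resulting keto acids are then oxidised irreversibly by the mitochondrial BCKDH complex, which BCKDK switches off by phosphorylation and PPM1K switches on again. The 3 carbon skeletons part after that step, leucine through IVD, valine through HIBCH and HIBADH, and all end in the TCA cycle or in ketone bodies. BCAT1 is the cytosolic form that many tumours express and BCAT2 the form of most normal tissues.

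Of the 9 members with enough reads to be tested, 6 fell in shKDM2B cells, and 3 did not pass the threshold. HIBADH fell most, to 16.3% of its empty vector level, followed by BCAT2 (38.5%), BCKDK (48.4%) and BCAT1 (51.6%), while PPM1K (76.0%) and IVD (87.6%) fell less. BCKDHB, DBT and HIBCH did not pass, and BCKDHA had too few reads to test. A change here is an adjusted p under 0.05 in edgeR's quasi-likelihood test, adjusted by the Benjamini-Hochberg method across all 14071 genes tested. Lower calls made up 30.4% of all genes tested and calls in either direction 60.9% (higher calls 30.5%), so most genes moved in this comparison. Called falls of at least 2-fold were seen for 3 of the 9 members (HIBADH, BCAT2 and BCKDK) and for 4.85% of all genes tested. The median log2 fold change was -0.40 over the 9 tested members and -0.01 over all genes tested. Library scaling places the middle of all genes near 0, so a shift of total RNA per cell would not show here. No member was called higher (0 at an unadjusted p under 0.05, and 0 with DESeq2 or limma-voom), and 7 were lower at an unadjusted p under 0.05. The share of all genes at that unadjusted threshold was not counted, so these counts have no background to be read against. Levels are given as CPM, read counts scaled to a common library size after TMM, edgeR's correction for library composition, and an SD over 3 libraries follows each mean. In bulk RNA, fewer expressing cells and less RNA per cell cannot be told apart.

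**Figure D1:**
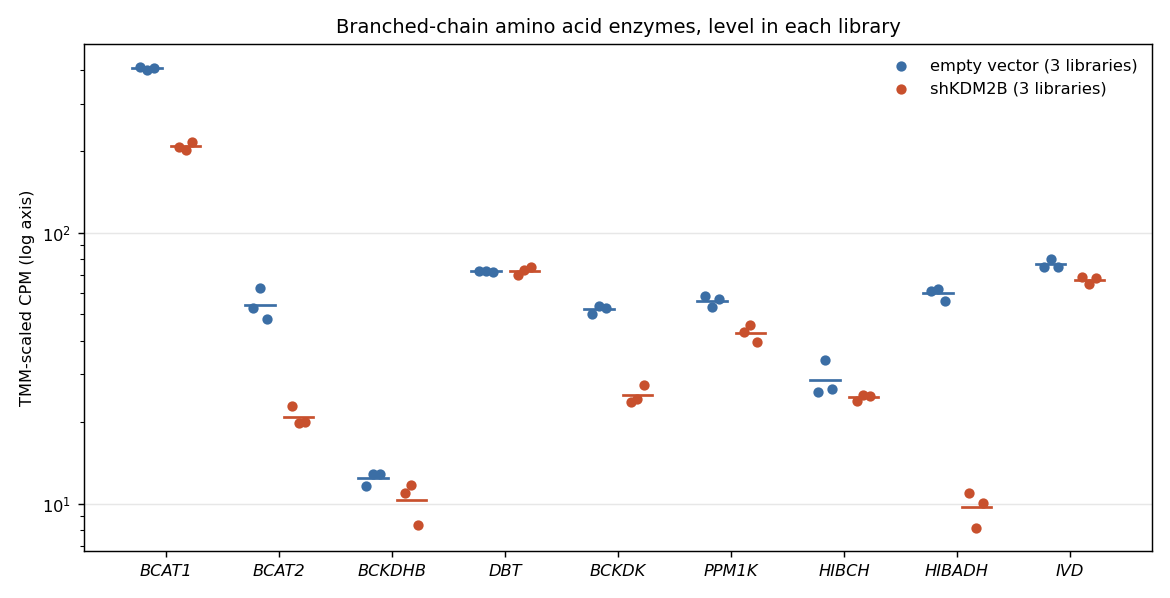
TMM-scaled CPM (log axis) of the 9 tested enzyme genes in each of the 3 empty vector and 3 shKDM2B libraries, with points for libraries and bars for group means. HIBADH lies between 56.1 and 62.2 CPM in empty vector and between 8.14 and 10.99 in shKDM2B, whereas the groups of DBT and BCKDHB overlap.

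The 6 libraries held 10190149 to 15737951 counts. KDM2B itself had 589, 714 and 902 counts in the empty vector libraries and 153, 166 and 224 in the shKDM2B libraries, a fall to 23.1% of the control level (log2 fold change -2.12, SE 0.08, edgeR adjusted p 8.77e-11). The log2 fold change of ATF4 was -1.77 (SE 0.07) and that of MYC -0.88 (SE 0.05). Of the marker genes of a mesenchymal-like triple-negative line, VIM, CD44, AXL, CAV1 and LGALS1 were all abundant but moved between groups. VIM fell by 1.68 on the log2 scale, from 1299 to 406 CPM (edgeR adjusted p 1.43e-12), CAV1 and LGALS1 also fell (-0.35 and -0.39 on the log2 scale) and CD44 and AXL rose (0.20 and 0.17). Their summed level was 5114 to 5432 CPM in empty vector and 4662 to 4842 CPM in shKDM2B libraries, and the part of these shifts in the results on the enzymes was not tested. The hormone receptors ESR1 and PGR had group means of at most 0.193 CPM. ERBB2, the receptor gene whose amplification triple-negative tumours lack, stood at 63.7 and 62.5 CPM in empty vector and shKDM2B. None of the 23 leukocyte, fibroblast, endothelial, hepatocyte, muscle and adipocyte markers passed the low-count filter, and each list summed to at most 1.85 CPM in any library.

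Both transaminase genes fell. BCAT1, the cytosolic enzyme, was the most abundant member, with 409, 400.6 and 407 CPM in empty vector replicates 1, 2 and 3 and 208, 202.5 and 217 CPM in shKDM2B replicates 1, 2 and 3. The groups did not overlap, and the highest shKDM2B library lay far under the lowest control. BCAT1 thus went from 405.5 ± 4.44 to 209.1 ± 7.29 CPM (SD, n = 3 each), a log2 fold change of -0.96 (SE 0.05, 95% interval -1.05 to -0.86, edgeR adjusted p 6.68e-10). The gene (ENSG00000060982.15) spans bases 24810022 to 24949459 of chromosome 12 on the minus strand in GRCh38, and 3.9% of its exon bases are shared with annotated genes of the opposite strand. The counts of those antisense genes were at most 11 in any library.

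BCAT2, the mitochondrial transaminase, was lower by a larger factor from a lower level. Its levels were 52.6, 62.3 and 48.1 CPM in the empty vector libraries and 22.9, 19.8 and 20.0 CPM in the shKDM2B libraries. Empty vector replicate 2 was the highest of the 6 and the groups were well apart. The mean went from 54.3 ± 7.26 to 20.9 ± 1.77 CPM, which is a 2.60-fold fall (log2 fold change -1.38, SE 0.10, 95% interval -1.59 to -1.16, edgeR adjusted p 3.53e-08). The gene (ENSG00000105552.15) spans bases 48795062 to 48811029 of chromosome 19, minus strand, and shares no exon base with another annotated gene.

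Since the members were read in 1 fit, the transaminases could also be set against each other inside each library, where library scaling plays no part. The BCAT1 to BCAT2 ratio of read counts was 7.78, 6.43 and 8.46 in empty vector and 9.06, 10.2 and 10.9 in shKDM2B libraries. All 3 shKDM2B ratios were above all 3 controls, and the mean ratio was 1.33-fold higher (difference of 0.42 on the log2 scale, exact two-sided permutation p 0.1, adjusted over 4 ratios 0.1). With 3 libraries against 3 this is the smallest p the test can give, so it cannot pass the threshold. Ratios of raw counts include gene length, so only their difference between groups can be read.

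**Figure D2:**
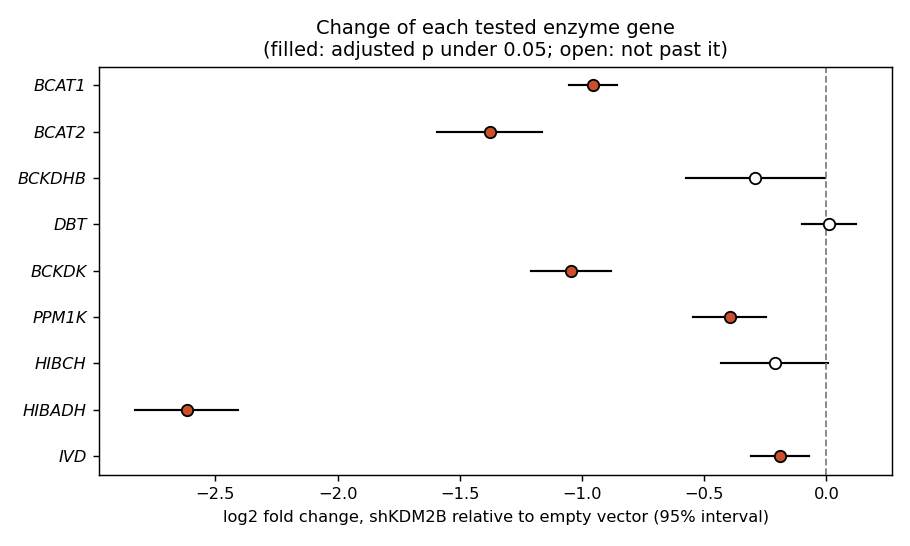
Log2 fold change of each tested enzyme gene in shKDM2B relative to empty vector, with 95% intervals; filled points passed the adjusted p threshold of 0.05. The interval of HIBADH runs from -2.83 to -2.41, outside those of all other members, and that of DBT (-0.10 to 0.12) includes 0.

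Of the 3 BCKDH complex genes, BCKDHB and DBT did not pass the threshold and BCKDHA could not be tested. BCKDHB, which encodes the beta subunit of the E1 decarboxylase, had 11.7, 12.9 and 12.9 CPM in empty vector and 10.99, 11.7 and 8.34 CPM in shKDM2B libraries. The groups overlapped, with shKDM2B replicate 2 above empty vector replicate 1. Its log2 fold change was -0.29 (SE 0.13, 95% interval -0.58 to -0.004, edgeR adjusted p 0.0742), which did not pass. The value rested on single libraries, being -0.14 (adjusted p 0.390) without shKDM2B replicate 3 and -0.39 (adjusted p 0.0385, called) without shKDM2B replicate 2. It was also called without the low-count filter (adjusted p 0.0450), and DESeq2 gave an adjusted p of 0.232. The gene is on the plus strand of chromosome 6 from 80106647 to 80346270 (ENSG00000083123.15).

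DBT, the E2 core that carries the lipoyl arm of the complex, was the steadiest member. It had 72.2, 72.1 and 71.7 CPM in empty vector and 70.1, 72.8 and 74.5 CPM in shKDM2B libraries, so the shKDM2B values spanned the controls. The log2 fold change was 0.01 (SE 0.05, edgeR adjusted p 0.866), and its 95% interval of -0.10 to 0.12 holds no change beyond 1.09-fold in either direction. DBT (ENSG00000137992.15) spans bases 100186919 to 100249834 of chromosome 1, minus strand.

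BCKDHA, the alpha subunit of E1 and the target of the kinase, could not be measured from this table. It had 2, 2 and 2 counts in empty vector and 3, 5 and 6 in shKDM2B libraries, against 120 to 178 counts for its partner BCKDHB in empty vector. BCKDHA (ENSG00000248098.12, chromosome 19 from 41397460 to 41425005, plus strand) shares 63.8% of its exon bases with a protein-coding gene annotated on the same strand (ENSG00000255730.5), which had 0 counts in all 6 libraries. The sources used here do not say how reads in such shared exons were counted, and its part in the low counts was not tested. Summed over libraries the gene had 6 and 14 counts, and the ratio of shKDM2B to empty vector per total count was 2.13 with an exact binomial 95% interval of 0.767 to 6.75, which covers counting error only and includes 1. The fits whose filters kept the gene, edgeR without the low-count filter and DESeq2, did not call it (log2 1.05 and 1.09, adjusted p 0.423 and 0.501). The BCKDHA to BCKDHB count ratio was 0.0167, 0.0148 and 0.0112 in empty vector and 0.0266, 0.0373 and 0.0469 in shKDM2B libraries (exact two-sided permutation p 0.1, adjusted over 4 ratios 0.1), which rests on those few counts. EXOSC5, whose start lies 19 bases from that of BCKDHA on the opposite strand, had 377 to 627 counts and a log2 fold change of -0.03 (SE 0.09, edgeR adjusted p 0.813).

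The kinase and the phosphatase both fell, the kinase by more. BCKDK, which phosphorylates and inactivates E1, had 50.1, 53.8 and 52.7 CPM in empty vector and 23.8, 24.3 and 27.4 CPM in shKDM2B libraries. Every shKDM2B library was far under every control. From 52.2 ± 1.92 to 25.2 ± 1.96 CPM this was a 2.06-fold fall (log2 fold change -1.05, SE 0.08, 95% interval -1.21 to -0.88, edgeR adjusted p 3.39e-08). BCKDK is on the plus strand of chromosome 16 from 31106107 to 31112791 (ENSG00000103507.14), with no exon base shared with another annotated gene.

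PPM1K, the mitochondrial phosphatase that reactivates the complex, had 58.2, 53.4 and 56.8 CPM in empty vector and 43.1, 45.7 and 39.7 CPM in shKDM2B libraries. The groups did not overlap but were closer than those of BCKDK. Its log2 fold change was -0.40 (SE 0.07, 95% interval -0.55 to -0.25, edgeR adjusted p 2.06e-04; chromosome 4 from 88257620 to 88284769, minus strand, ENSG00000163644.15). The BCKDK to PPM1K ratio of counts was 0.860, 1.01 and 0.927 in empty vector and 0.553, 0.531 and 0.691 in shKDM2B libraries. This ratio was therefore lower in all 3 shKDM2B libraries, by 0.66 on the log2 scale or 1.58-fold (exact two-sided permutation p 0.1, the smallest possible, adjusted over 4 ratios 0.1). These are transcript ratios, and phosphorylation of the complex was not measured.

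**Figure D3:**
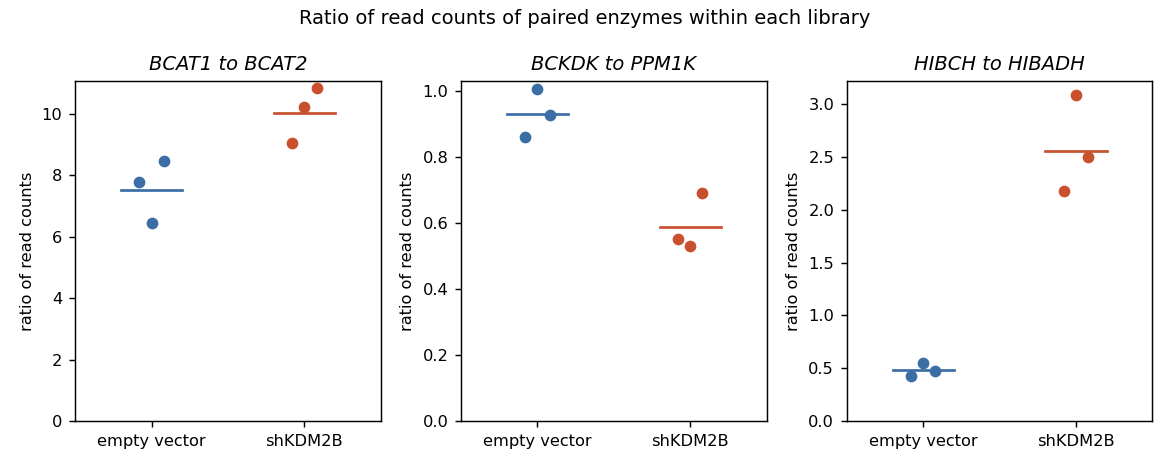
Ratio of read counts of 3 enzyme pairs within each library, with points for libraries and bars for the geometric mean of each group; each axis starts at 0. BCAT1 to BCAT2 and HIBCH to HIBADH are higher, and BCKDK to PPM1K lower, in all 3 shKDM2B libraries.

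In the valine branch the 2 consecutive enzymes moved apart. HIBCH, the mitochondrial hydrolase that frees 3-hydroxyisobutyrate from CoA, had 25.9, 33.9 and 26.4 CPM in empty vector and 23.9, 25.1 and 25.1 CPM in shKDM2B libraries. The groups did not overlap, but the gap between them was small and empty vector replicate 2 stood above the rest. Its log2 fold change of -0.21 (SE 0.10, 95% interval -0.43 to 0.01, edgeR adjusted p 0.0860) did not pass the threshold. It passed without empty vector replicate 1 (adjusted p 0.0349), without empty vector replicate 3 (adjusted p 0.0466) and without the low-count filter (adjusted p 0.0239). Without empty vector replicate 2, its highest library, the value was -0.09 (adjusted p 0.363), and DESeq2 gave an adjusted p of 0.181. HIBCH (ENSG00000198130.16) spans bases 190189735 to 190344193 of chromosome 2, minus strand, and shares 2.7% of its exon bases with INPP1 on the opposite strand, whose log2 fold change was 0.09 (SE 0.08, edgeR adjusted p 0.363).

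HIBADH, the dehydrogenase that oxidises the freed 3-hydroxyisobutyrate in the next step, showed the largest fall of the set. It had 627, 653 and 775 counts in the empty vector libraries and 113, 93 and 154 in the shKDM2B libraries, or 61.0, 62.2 and 56.1 against 10.99, 8.14 and 10.0 CPM. The lowest control was several times the highest shKDM2B library. The mean went from 59.8 ± 3.21 to 9.72 ± 1.45 CPM, a 6.14-fold fall (log2 fold change -2.62, SE 0.10, 95% interval -2.83 to -2.41, edgeR adjusted p 5.19e-11). Only 22 of the 14071 genes tested had a lower log2 fold change. The gene (ENSG00000106049.9) spans bases 27525442 to 27662995 of chromosome 7, minus strand, and shares no exon base with another annotated gene. The HIBCH to HIBADH ratio of counts was 0.424, 0.545 and 0.471 in empty vector and 2.18, 3.09 and 2.50 in shKDM2B libraries. All 3 shKDM2B ratios were above all 3 controls, and the ratio was 5.36-fold higher (2.42 on the log2 scale, exact two-sided permutation p 0.1, adjusted over 4 ratios 0.1). Since raw counts include gene length, a ratio above or below 1 does not show which gene was more abundant.

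HIBADH and BCAT2, the members with the lowest log2 fold changes, were also the only 2 of the 10 whose longest coding transcript holds the word CGACAC in its annotated 3′ UTR. The word was chosen because earlier results of these data showed lower counts among genes that hold it. The windows of 30 bases around it are shown with the word in capitals, read from GENCODE 29 transcripts on GRCh38 in the sense of the transcript. That of BCAT2 is chr19:48795263-48795292 and that of HIBADH chr7:27525612-27525641, both on the minus strand.
BCAT2: cccatgtggttgCGACACtcccaaagccgt
HIBADH: ctcaccaactccCGACACtcagcagacttg
The longest run the windows share is CGACACTC, of 8 bases. The word begins at base 146 of the 361-base 3′ UTR of BCAT2 and at base 585 of the 772-base 3′ UTR of HIBADH. It is in 5 of the 8 annotated coding transcripts of BCAT2, in 1 of the 2 of HIBADH, and in none of the coding transcripts of the other 8 members.

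Of all tested coding genes with an annotated 3′ UTR, 596 (4.97%) hold the word. Of these 50.3% were lower and 23.3% higher, with a median log2 fold change of -0.24, against 30.5% lower, 33.5% higher and a median of 0.01 for the 11389 genes without it. Since the word was picked from these same libraries, these shares restate why it was picked and are no independent support for it. Genes with the word also have longer 3′ UTRs (median 2950 against 1313 bases). The part of this word, or of 3′ UTR length, in the falls of HIBADH and BCAT2 was not tested. BCAT1 and BCKDK, which hold no copy in 3′ UTRs of 7986 and 302 bases, fell by 0.96 and 1.05 on the log2 scale.

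IVD, the isovaleryl-CoA dehydrogenase of the leucine branch, had 75.1, 80.4 and 74.8 CPM in empty vector and 68.6, 65.0 and 68.0 CPM in shKDM2B libraries. The groups did not overlap, but they lay close together. The group means were 76.8 ± 3.15 and 67.2 ± 1.95 CPM, a fall by 0.19 on the log2 scale (SE 0.06, 95% interval -0.31 to -0.07, edgeR adjusted p 0.00823). The call was lost without shKDM2B replicate 2 (-0.16, adjusted p 0.0546) and when tested against a 1.2-fold change. IVD lies on the plus strand of chromosome 15 from 40405795 to 40435947 (ENSG00000128928.10). Groups that did not overlap, with shKDM2B lower, were seen for 7 of the 9 tested members and for 32.5% of all genes tested, beside 33% of genes with shKDM2B higher and 65.5% in either direction.

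Promoter windows, from 250 bases before to 50 after a RefSeq start on GRCh38.p14, were matched for 8 of the 10 members (all but HIBADH and BCAT2), 12 windows in all. The windows were searched on both strands for CACGTG, the E-box that MYC binds with MAX, and for TGATGNAA, the core of the composite element that ATF4 binds, and 1 window of 12 held either. That window is the BCAT1 start at chr12:24949052-24949351 on the minus strand, with 1 copy of each word. They begin 48 bases before the start (the ATF4 word) and at base 15 of the transcript (the E-box). Of all 35116 RefSeq windows 7.26% hold CACGTG, 3.62% hold TGATGNAA and 0.179% hold both. BCAT1 has 4 other annotated starts without either word, and which start the cells used was not measured. The window of BCKDK, which fell by a like amount and holds neither, is chr16:31108136-31108435 on the plus strand. It lies inside the annotated gene, which begins at base 31106107, so the sequence around that first start was not searched. The HIBCH window, from 190319777 to 190320076, likewise lies inside its gene, whose first start is at 190344193. So does the BCKDHA window, from 41397568 to 41397867, in a gene that begins at base 41397460. The BCAT1 window with both words also lies inside its gene, whose first start is at 24949459. Another BCAT1 window, from 24949291 to 24949590, covers that first start and holds neither word. The BCAT1 and BCKDK windows are printed 5′ to 3′ in the sense of the gene, with the words in capitals.
BCAT1: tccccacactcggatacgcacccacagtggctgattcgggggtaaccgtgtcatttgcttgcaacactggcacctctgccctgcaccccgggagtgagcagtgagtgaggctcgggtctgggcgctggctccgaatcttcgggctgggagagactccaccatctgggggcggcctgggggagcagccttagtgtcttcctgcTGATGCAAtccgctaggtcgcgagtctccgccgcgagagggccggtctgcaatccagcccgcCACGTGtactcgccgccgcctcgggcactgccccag
BCKDK: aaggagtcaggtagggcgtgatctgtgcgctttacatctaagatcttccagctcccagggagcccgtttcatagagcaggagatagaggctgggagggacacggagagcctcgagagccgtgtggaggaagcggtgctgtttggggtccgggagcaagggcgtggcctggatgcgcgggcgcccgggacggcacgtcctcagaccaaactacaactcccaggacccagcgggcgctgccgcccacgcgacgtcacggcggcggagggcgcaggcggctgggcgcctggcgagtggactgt
CpG dinucleotides, which the CXXC domain of KDM2B recognises when unmethylated, numbered 23 in the first window and 28 in the second, against a median of 14 over all windows. The other 4 BCAT1 windows held 11, 13, 35 and 38. Members that fell less, PPM1K and IVD, had 30 and 23, and members that were not called or not tested had 30 (HIBCH), 27 (BCKDHB), 14 (DBT) and 13 (BCKDHA). HIBADH and BCAT2, which fell by the most, had no window, and a link of CpG number to the changes was not tested. Binding of any factor was not measured here, and a match is a description of the letters only.

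Scaled by exon length (CPM per kilobase of annotated exon), the levels of different members can be set side by side. In empty vector the order was BCAT1 at 34.4 ± 0.376, HIBADH at 25.7 ± 1.38, BCKDK at 13.5 ± 0.495, BCAT2 at 11.9 ± 1.59, IVD at 11.7 ± 0.482, DBT at 6.37 ± 0.0231, PPM1K at 4.94 ± 0.218, HIBCH at 3.86 ± 0.604 and BCKDHB at 3.06 ± 0.171 CPM per kilobase. The neighbours BCKDK and BCAT2, and BCAT2 and IVD, overlapped between libraries, and the other neighbours did not. In shKDM2B cells BCAT1 stayed first at 17.8 ± 0.617, followed by IVD at 10.3 ± 0.299, BCKDK at 6.50 ± 0.507, DBT at 6.41 ± 0.196, BCAT2 at 4.59 ± 0.389 and HIBADH at 4.19 ± 0.623 CPM per kilobase. HIBADH thus moved from the second to the sixth place and IVD from the fifth to the second. The places after HIBADH were held by PPM1K at 3.765 ± 0.267, HIBCH at 3.322 ± 0.0917 and BCKDHB at 2.543 ± 0.4385 CPM per kilobase. Per kilobase, HIBADH thus lay above HIBCH in both groups. The libraries of BCKDK and DBT, of BCAT2 and HIBADH, and of HIBADH and PPM1K overlapped in shKDM2B cells. The lengths are unions of all exons annotated in GENCODE 29, which may be longer than the transcripts these cells make.

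**Figure D4:**
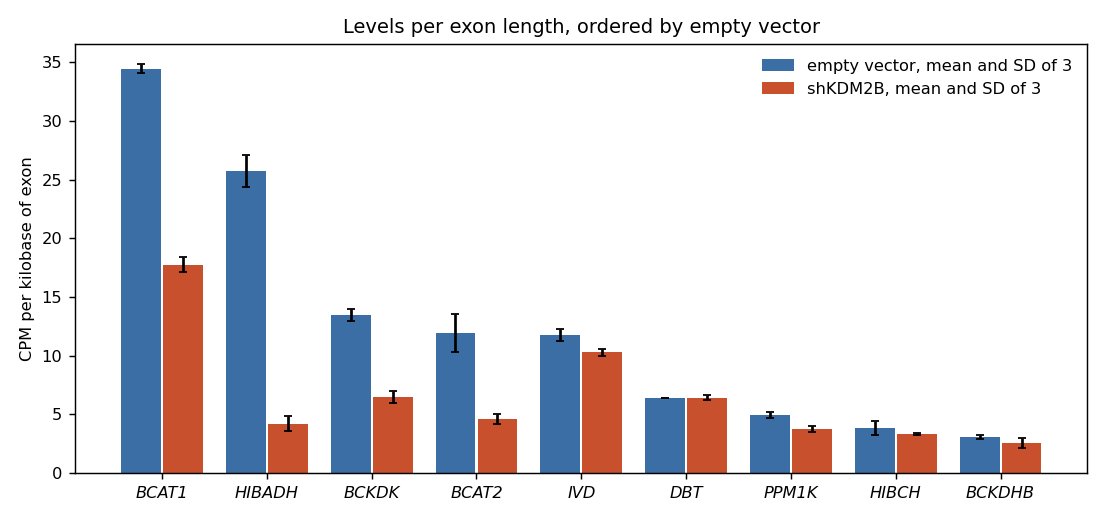
CPM per kilobase of exon (mean and SD of 3 libraries) for the 9 tested enzyme genes, ordered by the empty vector mean; bars start at 0. BCAT1 stands first in both groups, and HIBADH drops from 25.7 to 4.19.

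The further steps of the pathway held calls in both directions. Of 17 tested enzymes in the later leucine, isoleucine, valine and propionyl-CoA steps (18 listed), 6 fell, 3 rose and 8 did not pass, around a median log2 fold change of 0.06, beside 30.4% lower and 30.5% higher calls over all genes tested. In the leucine branch MCCC1, the biotin-bearing subunit of methylcrotonyl-CoA carboxylase that follows IVD, was at 54.5 ± 3.42 CPM in empty vector and fell by 1.03 on the log2 scale to 26.6 ± 0.929 CPM (SE 0.07, edgeR adjusted p 2.60e-08). Its partner MCCC2 had a log2 fold change of -0.36 (SE 0.06, adjusted p 6.09e-05). AUH, the hydratase of the step after the carboxylase, stood at 0.13 (adjusted p 0.694) but its sign turned on 1 library. It was -0.16 (adjusted p 0.598) without empty vector replicate 3 and 0.52 (adjusted p 0.0353, called higher) without empty vector replicate 2.

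In the isoleucine and valine branches 2 of 8 tested genes fell and 2 rose, where 60.9% of all genes were called in either direction. ACADSB, the short branched-chain acyl-CoA dehydrogenase, fell by 0.61 on the log2 scale (SE 0.10), from 18.6 ± 1.47 to 12.2 ± 0.514 CPM, and ACAT1, the thiolase that ends isoleucine breakdown, from 54.0 ± 3.29 to 33.1 ± 2.53 CPM (-0.70, SE 0.08). HADHB, the beta subunit of the trifunctional protein, and ACAD8, the isobutyryl-CoA dehydrogenase of valine breakdown, were the genes that rose (0.46 and 0.17), named here after their values were seen. The call of ACAD8 (adjusted p 0.0238) was lost without empty vector replicate 1 and without shKDM2B replicate 1 or 2 (adjusted p 0.0673 to 0.105). It was also lost with DESeq2 (0.145), without the low-count filter (0.0992) and when tested against a 1.2-fold change (0.925). ECHS1 and HSD17B10, a hydratase and a dehydrogenase of the same branches, were called higher without empty vector replicate 2 (0.21 and 0.23, adjusted p 1.20e-04 and 0.00138). Of the propionyl-CoA and methylmalonyl-CoA genes, which take up the carbon of valine and isoleucine, MMAB, the adenosyltransferase that makes the cobalamin cofactor of the mutase, fell from 21.0 ± 2.00 to 10.1 ± 0.644 CPM (-1.06, SE 0.11). The mutase MMUT itself rose from 33.5 ± 1.64 to 45.5 ± 2.99 CPM (0.44, SE 0.07), and the carboxylase subunits PCCB and PCCA had log2 fold changes of -0.45 (adjusted p 6.81e-04) and 0.36 (adjusted p 0.0580, or 0.0224 without empty vector replicate 2).

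Of 4 lipoate and biotin cofactor genes 2 fell and 2 did not pass, and the median log2 fold change was -0.39, against 30.4% lower calls over all genes. LIAS, which makes the lipoyl group of E2, fell by 0.75 on the log2 scale (SE 0.14, edgeR adjusted p 2.82e-04), from 9.77 ± 0.800 to 5.78 ± 0.620 CPM. LIPT2, an octanoyltransferase of lipoate synthesis, stood at 2.04 and 1.26 CPM in empty vector and shKDM2B (-0.70, adjusted p 0.0392). Its call needed all libraries but empty vector replicate 1: leaving out any other gave adjusted p 0.0597 to 0.171. The call was also lost with DESeq2 (0.231), without the low-count filter (0.0822) and when tested against a 1.2-fold change (0.0939). DLD, the E3 subunit that BCKDH shares with other complexes, stood at -0.08 (SE 0.06, adjusted p 0.268), and ETFA, which takes electrons from IVD, at 0.01 (SE 0.06, adjusted p 0.942). The other electron transfer genes were at low levels. ETFB was called higher (4.11 to 6.23 CPM, 0.59, adjusted p 0.0246), but not without empty vector replicate 1 or 3 or shKDM2B replicate 1 or 2 (adjusted p 0.0531 to 0.143). Nor was it called with DESeq2 (0.0900) or against a 1.2-fold change (0.0735). ETFDH was not called (-0.27, adjusted p 0.0978), but was called lower without empty vector replicate 2 or shKDM2B replicate 1 (adjusted p 0.0180 and 0.0376).

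Carriers of branched-chain amino acids also split. SLC7A5, the light chain of the LAT1 exchanger at the cell surface, fell by 1.68 on the log2 scale (SE 0.05), from 818.1 ± 39.7 to 254.9 ± 10.1 CPM. Its heavy chain SLC3A2 had a log2 fold change of -0.22 (SE 0.06, edgeR adjusted p 0.00429), a call lost when tested against a 1.2-fold change. SLC43A2 and SLC43A1, facilitators of the LAT4 and LAT3 type, rose from 8.69 ± 0.139 to 25.9 ± 0.872 CPM and from 16.8 ± 1.42 to 23.9 ± 0.965 CPM. SLC25A44, the carrier that brings branched-chain amino acids into mitochondria, had a log2 fold change of 0.10 (SE 0.06, adjusted p 0.214), and SLC7A8 had at most 2 counts in any library.

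The sister complexes that oxidise pyruvate and 2-oxoglutarate gave a comparison for the regulatory pair of BCKDH. Of their 13 genes, 3 fell, 6 rose and 4 did not pass, around a median of 0.14 on the log2 scale beside -0.40 for the 9 enzymes of the branched-chain set. Over all genes tested 30.4% were lower and 30.5% higher. The phosphatases of pyruvate dehydrogenase rose, PDP1 by 1.11 on the log2 scale (SE 0.06) from 45.1 ± 2.39 to 97.6 ± 2.25 CPM and PDP2 by 0.57 (SE 0.06) from 56.8 ± 0.198 to 84.3 ± 4.67 CPM, where PPM1K fell. Its kinase PDK1 fell from 25.6 ± 1.25 to 11.9 ± 0.264 CPM (-1.09, SE 0.09), a value beside the -1.05 of BCKDK, while PDK2 and PDK3 did not pass (0.23 and -0.13, adjusted p 0.115 and 0.225). PDK3 was called lower without empty vector replicate 2 (-0.21, adjusted p 0.0423). PDK4, another kinase of the complex, moved opposite to PDK1 and rose 5.73-fold at a low level (2.52 on the log2 scale, SE 0.30, adjusted p 5.39e-06), between group means of 0.507 ± 0.195 and 3.04 ± 0.0940 CPM. PDHX, the E3-binding protein, rose from 99.1 ± 2.95 to 144.7 ± 0.912 CPM (0.55, SE 0.05, adjusted p 3.67e-07). In the complex that oxidises 2-oxoglutarate, OGDH rose and DLST fell (0.393 and -0.485 on the log2 scale, edgeR adjusted p 4.4e-06 and 1.1e-06). Of the genes counted above, PDHA1 (lower, adjusted p 0.0420) was not called without empty vector replicate 2 or shKDM2B replicate 1 or 2 (0.103 to 0.159), and PDPR (higher, adjusted p 0.0224) was not called without empty vector replicate 3 or shKDM2B replicate 1 or 3 (0.0547 to 0.0870). DESeq2 called neither (0.0861 and 0.116), nor did the test against a 1.2-fold change, and both are named after their values were seen. PDPR was also not called without the low-count filter (0.180). No test of the difference between the complexes was made.

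**Figure D5:**
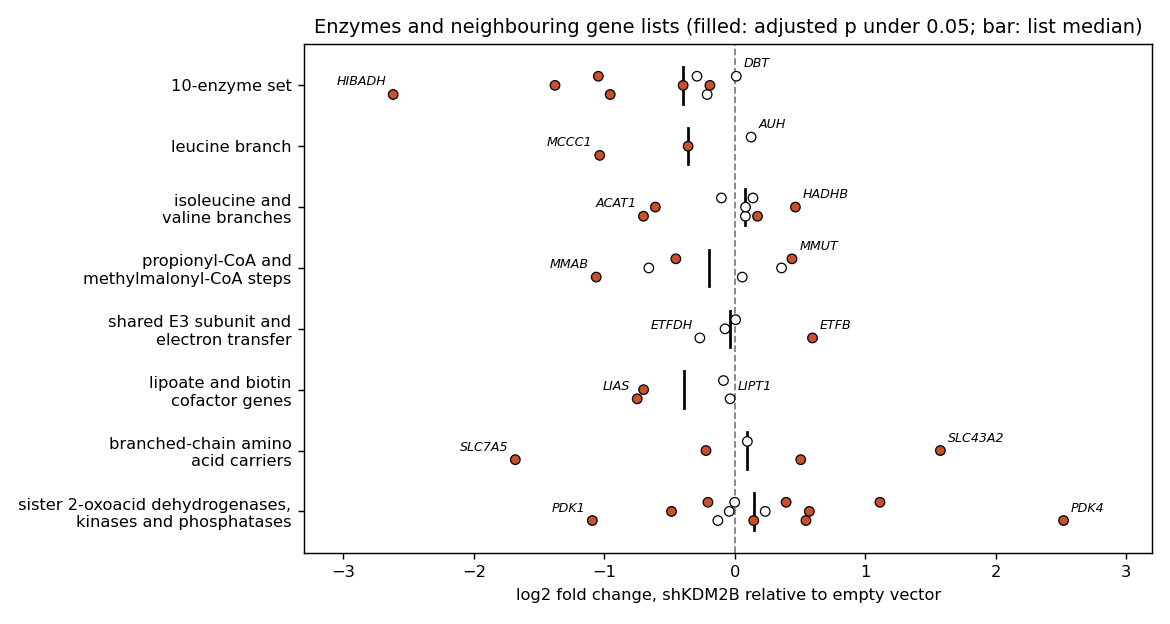
Log2 fold change of every tested gene of the enzyme set and of 7 neighbouring lists, with filled points past the adjusted p threshold of 0.05 and a bar at each list's median; the lowest and highest gene of each list is named. HIBADH is the lowest point at -2.62, and the list medians run from -0.40 for the enzyme set to 0.14 for the sister complexes.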

How the data were processed

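Ribosome-depleted total RNA was sequenced from 3 empty vector and 3 shKDM2B libraries, per the labels' protocols. The authors deposited raw counts per gene, 1 column per library. Per the submitters' processing notes the tools were featureCounts, STAR and Trim Galore, with DESeq2, limma and edgeR, on GRCh38, and the sources used here give no version, role, annotation release or strand setting. Table columns were assigned by name: EV to empty vector, and columns of 1 numbered hairpin label to shKDM2B, the only hairpin group, by replicate number. Symbols were matched for 61369 of 61533 rows. The labels state biological replicates but not separate cultures, so a p-value reflects the spread among these libraries alone, and that spread may be technical. No 2 libraries of a group agreed within sampling noise (chi-square over its degrees of freedom, 1.89 to 8.74).

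After filterByExpr (count of at least 10, total of at least 15) and TMM scaling, genes were tested with edgeR 4.0.16 (R 4.3.3, quasi-likelihood, robust, two-sided). SE was taken as the log2 fold change over the square root of F. Ratios were compared by exact permutation (scipy 1.17.1). The fit was also run on simulated counts in which few genes changed, a setting unlike these data, where most genes were called. Precision is limited by depth: 0 counts in a library allow up to 3 counts, or 0.191 to 0.294 CPM, which covers counting error only. Alternatives were DESeq2's size factors, upper-quartile scaling, 2 other filters, DESeq2 1.42.0, limma-voom (limma 3.58.1), a block for the replicate number, a 1.2-fold test threshold, 1 count added to ratios, and leaving out each library. Exon lengths, overlaps and 3′ UTRs came from GENCODE 29 and promoter windows from RefSeq.

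The members, lists and the CGACAC word were chosen with earlier results of these data known. Named genes were the 10 members, KDM2B, MYC, ATF4, markers, genes that overlap a member or start beside it, and, in the pathway lists, called genes whose mean was 5 CPM or more and whose log2 change was 0.5 or more, and any gene of a list of up to 6. Outside this rule, and after their values were seen, HADHB, ACAD8, ECHS1, HSD17B10, PDHA1, PDPR, OGDH, DLST, PDK2, PDK3 and PDK4 were also named. Of the genes first placed in the pathway lists, 3 are not reported here and enter no list count or median.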

Additional observations from a re-analysis of the deposited data

How the results depend on the processing

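Under the 14 alternatives run (7 other settings or tools, the replicate block among them, a test against a 1.2-fold change, and 6 fits that each left out 1 library), BCAT1, BCAT2, BCKDK, PPM1K and HIBADH stayed called lower, with HIBADH between -2.70 and -2.51 and PPM1K between -0.44 and -0.34 on the log2 scale. IVD, BCKDHB and HIBCH changed side of the threshold as given with their values above. The number of members called was 6 with other scalings, DESeq2 and limma-voom, 8 without the low-count filter, 5 against a 1.2-fold change, and 6 to 7 with 1 library left out. Of all 14071 genes tested, 5458 rather than 8571 were called against a 1.2-fold change. DESeq2 called 7150 of 19668 genes, limma-voom 8577 of 14071, and the fit without the low-count filter 8876 of 35607. DESeq2's size factors and upper-quartile scaling gave 8578 and 8584 calls among 14071 genes. With 1 library left out, 7566 to 9128 genes were called, of 14322 to 14635 tested. With the replicate block 8479 genes and the same 6 members were called. Deviations of same-numbered libraries from their group means had correlations of 0.118, -0.0258 and 0.0751, against -0.135 to 0.0838 for libraries of unlike number. The numbers were not taken as pairs, though these overlapping values do not exclude pairing. In this balanced layout a block cannot move the ratio differences (0.416 for BCAT1 to BCAT2), so it does not bear on them. With 1 library left out, that difference ran from 0.305 to 0.503 for BCAT1 to BCAT2, from -0.779 to -0.588 for BCKDK to PPM1K, from 1.16 to 1.57 for BCKDHA to BCKDHB and from 2.29 to 2.54 for HIBCH to HIBADH. Of the 43 further pathway genes tested in the main fit, 25 were called (13 lower and 12 higher), beside 60.9% of all genes tested. Over the alternatives 19 to 29 were called (20 with DESeq2). These are totals for each fit and need not be the same genes. BCKDHA was not called in either fit that kept it.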
